A study of Mus musculus with 4 samples.

Results

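The 37 Hox genes measured here were taken from the 4 mouse clusters, Hoxa, Hoxb, Hoxc and Hoxd. They are the genes whose platform symbol is Hoxa, Hoxb, Hoxc or Hoxd followed by a number from 1 to 13. Transcripts named as antisense or opposite-strand (4 spots) were left out, and so was 1 spot listed with both Hoxb2 and Hoxb3os. These genes were read by 57 of the 45220 spots of each array, and they are 37 of 19087 genes in all. There were 10 genes of the Hoxa cluster, 10 of Hoxb, 8 of Hoxc and 9 of Hoxd.

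Hox genes encode transcription factors with a homeodomain that tell cells their position along the head to tail axis and along the limbs. Within a cluster the genes lie side by side in the order in which they are switched on in the embryo, and the same number in different clusters marks paralogs that arose from a common gene. Fibroblasts keep part of the Hox pattern of the body site they came from, which Polycomb repressors and trithorax activators help to maintain.

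Each of 4 two-colour Agilent arrays carried RNA of 1 mtBALB culture and 1 mtB6 culture with the same replicate number. Both are cybrids of the fibroblast line LMEB3, in which mitochondria of a donor are joined to the nucleus of another cell. mtBALB cells, which the labels call the mutant, carry mitochondria of BALB/cJ mice, and mtB6 cells, the wild type control, carry those of C57BL/6J mice. All cultures were at passage 3 in medium with 4.5 g/L glucose and 10% fetal bovine serum. The replicates are named as biological and the title speaks of independent clones; how many clones there were per line is not given in the sources used here. Replicates 1 and 3 had mtBALB RNA in Cy3 and mtB6 RNA in Cy5, and the dyes were exchanged for replicates 2 and 4. The comparison asks how expression differs between cells with different mitochondrial genotypes.

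All values are the authors' deposited log ratios between the lines, taken as log2, so a value of 1 is a doubling. Which line forms the numerator is not stated, so the sign tells on which side of the ratio a gene lay, and neither line can be called the higher one. Levels of a gene cannot be read from ratios. A value that at least 3 spots of an array have in common is called shared here. Dim spots, with few possible whole-number signals, can give such values, and so can spots at the scanner's ceiling; brightness was not measured. Between 53.7% and 56.0% of all spots of an array had a shared value. Lgals1, an abundant galectin of fibroblasts, had the same value as 69 spots in all on replicate 2 and 42 on replicate 3, and 0 Hox spots had that value on either array.

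Of the 37 Hox genes, 21 had a spot whose value was unshared on all 4 arrays, against 51.2% of all genes. These 21 lay mainly in the middle of the clusters. Of the 15 genes of groups 4 to 8, which specify the neck and trunk, 12 had an unshared spot, and of the 7 genes of groups 9 and 10, which act from the lower trunk to the limbs, 6 did. Among the 7 genes of groups 1 to 3, which act in the hindbrain and neck, only Hoxb2 and Hoxb3 had one. Among the 8 genes of groups 11 to 13, which act in the distal limb and the tail end, only Hoxb13 had one. By cluster there were 4 of 10 in Hoxa, 8 of 10 in Hoxb, 6 of 8 in Hoxc and 3 of 9 in Hoxd. For 10 genes, including Hoxd10, Hoxd11, Hoxd12 and Hoxd13, all spots had shared values on all 4 arrays.

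**Figure D1:**
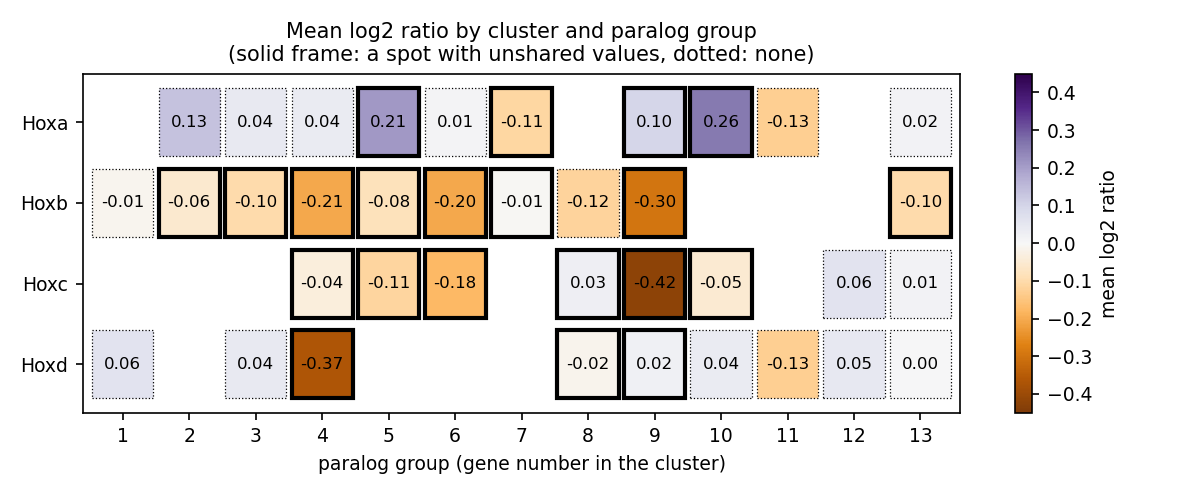
Mean log2 ratio of the mtBALB and mtB6 pairs over 4 arrays for 37 Hox genes, with the 4 clusters in rows and the paralog groups 1 to 13 in columns. The colour and the printed value give the mean, and solid frames mark the 21 genes with an unshared spot, most of which lie in groups 4 to 10. The most negative cell is Hoxc9 at -0.42 and the most positive is Hoxa10 at 0.26.

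No Hox gene passed the test between the lines. In limma, fitted with a dye term over all 19087 genes, 0 genes passed an adjusted p of 0.05 (0% of all genes), and the smallest adjusted p of a Hox gene was 0.9997. At an unadjusted p under 0.05 there was 1 Hox gene of 37, Hoxa10, where 3.64% of all genes were called (1.59% with a positive and 2.05% with a negative mean). That count was 7 without replicate 1, where 8.27% of all genes were called, and 0 without replicate 2, where 2.23% were. It was 3 with no dye term, where 2.92% of all genes were called. The 95% interval of a Hox gene's mean log2 ratio reached between 0.151 and 0.544 to either side, with a median of 0.232. Differences within those unadjusted intervals were not detectable with 4 arrays, and larger ones could also miss the adjusted threshold. Hoxa10, whose interval of 0.06 to 0.45 left out 0, had an adjusted p of 0.9997 in limma. The mean was positive for 17 of the 37 Hox genes and for 49.5% of all genes, and the median of the means was -0.01 for the Hox genes and -0.00 for all genes.

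The same sign on all 4 arrays was seen for 5 Hox genes, against 9.02% of all genes. Hoxa10 was positive throughout, as 4.37% of all genes were, and Hoxb8, Hoxb9, Hoxc9 and Hoxd4 were negative throughout, as 4.65% of all genes were. In 7 Hox genes, Hoxa4, Hoxc4, Hoxc5, Hoxc12, Hoxd3, Hoxd8 and Hoxd10, the sign alternated with the dye orientation, against 21.3% of all genes. The largest absolute mean of any Hox gene was 0.425, that of Hoxc9. The ratios of the 37 Hox genes varied over the arrays with a median SD of 0.235, against 0.180 over all genes, and those of the 21 with an unshared spot with 0.290, against 0.244 over the 9774 genes of that kind.

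**Figure D2:**
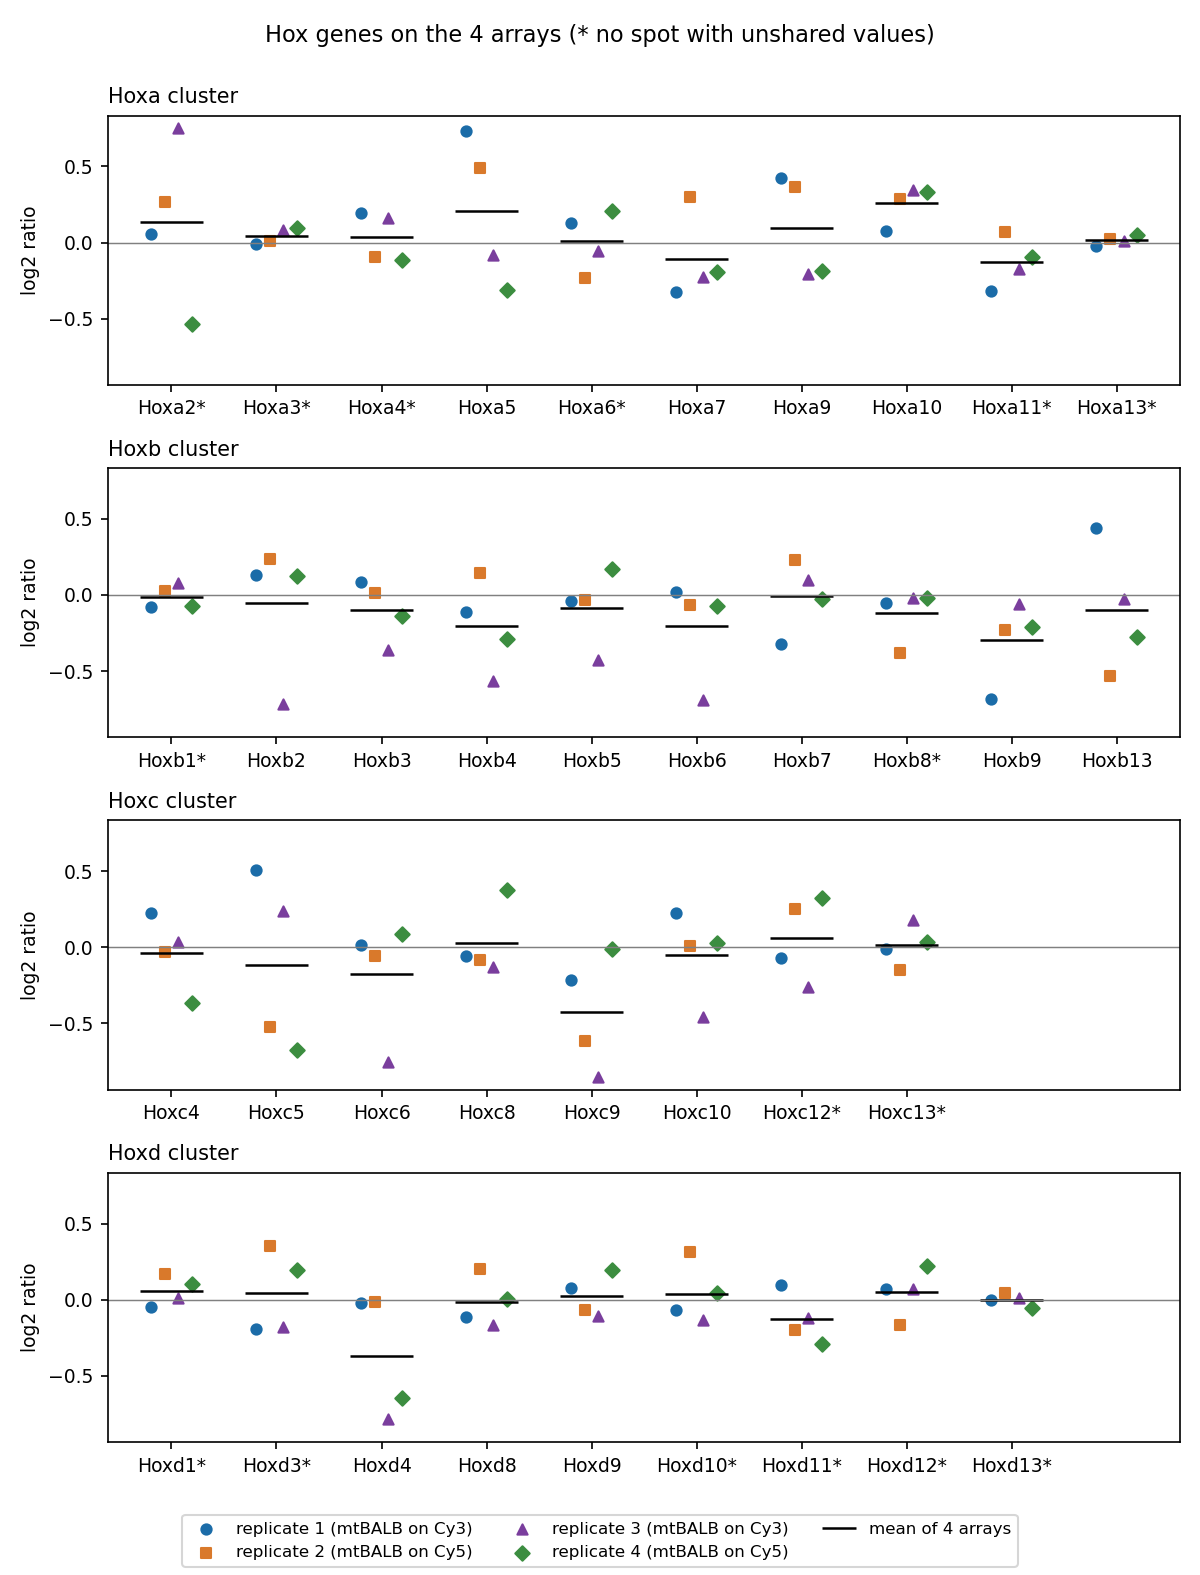
Log2 ratio of each Hox gene (vertical axis) on each of the 4 arrays, with 1 panel per cluster and the genes in the order of the cluster; symbols mark the replicates, black lines the mean, and asterisks the 16 genes with no unshared spot. Hoxb2 to Hoxb6 have their lowest value on replicate 3, between -0.71 and -0.36, and Hoxa5 and Hoxa9 are positive on replicates 1 and 2 and negative on replicates 3 and 4.

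In the Hoxa cluster most genes lay slightly on the positive side. Means were positive for 8 of 10 genes and for 3 of the 4 with an unshared spot, where 49.5% of all genes had a positive mean. The mean over the cluster was 0.09, 0.15, 0.06 and -0.08 on replicates 1 to 4. Over the arrays it was 0.06, and its fitted value was between 0.00 and 0.11 without single replicates. Fitted values without a replicate give each dye orientation the same weight. The lone array of an orientation then counts as much as both arrays of the other. Hoxa10, which patterns the lumbar region and the uterus, had 0.07, 0.29, 0.34 and 0.33, a mean of 0.26 ± 0.12 (SD, n = 4). Its unadjusted p was 0.020 in limma (95% interval 0.06 to 0.45), and its adjusted p was 0.9997. The unadjusted p was 0.013 without replicate 1 and 0.079, 0.065 and 0.096 without replicates 2, 3 and 4. Replicates 2, 3 and 4 lay close together and replicate 1 was nearer to 0. Hoxa10 was read by 1 spot, which had an unshared value on every array.

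Hoxa5, needed for lung development, and Hoxa9, a regulator of blood stem cells, divided the pairs of cultures in the same way. Hoxa5 had 0.73, 0.49, -0.08 and -0.31 on replicates 1 to 4. Hoxa9 had 0.42, 0.37, -0.21 and -0.19. Both were positive on replicates 1 and 2 and negative on replicates 3 and 4, so each dye orientation held 1 positive and 1 negative array. The means of 0.21 ± 0.49 for Hoxa5 and 0.10 ± 0.34 for Hoxa9 were smaller than the spread between pairs. Hoxa7, which acts in the trunk skeleton and lies between them in the cluster, did not share this division. It had -0.32, 0.30, -0.22 and -0.19, positive on replicate 2 alone.

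Hoxa2, which patterns the second branchial arch, had the widest range of any Hox gene. In the order of the replicates it had 0.06, 0.26, 0.75 and -0.54, with a mean of 0.13 ± 0.53, and its spot had a shared value on 1 array. Hoxa11, a gene of the forearm and uterus, had -0.32, 0.07, -0.17 and -0.10, a mean of -0.13 ± 0.16, with shared values on all 4 arrays. The genes Hoxa3, Hoxa4, Hoxa6 and Hoxa13, none with an unshared spot, had means between 0.01 and 0.04.

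In the Hoxb cluster every gene had a negative mean, 10 of 10, where 49.5% of all genes had a positive one. Only Hoxb8 and Hoxb9 were negative on all 4 arrays. The means of Hoxb1 and Hoxb7 were both -0.01, and without replicate 3 the fitted means of Hoxb2 and Hoxb13 were 0.16 and 0.02. That of Hoxb13 leans on replicate 1, at 0.44, the only array then left with mtBALB in Cy3. The mean over the cluster was -0.06, -0.06, -0.27 and -0.08 on replicates 1 to 4, -0.12 ± 0.10 in all (SD, n = 4). Its fitted value without replicate 3 was -0.07. Replicate 3 was lowest in the run of neighbours from Hoxb2 to Hoxb6. Hoxb2, which acts in the hindbrain, had 0.13, 0.24, -0.71 and 0.13. Hoxb4, a gene that expands blood stem cells when overexpressed, had -0.11, 0.14, -0.57 and -0.29. Hoxb6, a gene of the trunk, had 0.02, -0.07, -0.69 and -0.07. On the other arrays Hoxb2 was positive and Hoxb6 within 0.1 of 0, so that their means of -0.06 ± 0.44 and -0.20 ± 0.33 rest on replicate 3. Hoxb3 and Hoxb5 had -0.36 and -0.43 on replicate 3 and between -0.14 and 0.17 on the other arrays. The next gene in the cluster, Hoxb7, had 0.10 on replicate 3 and its lowest value, -0.32, on replicate 1.

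Hoxb9, which shapes the ribs and mammary gland, was the Hoxb gene of smallest p. Its 4 values were -0.69, -0.23, -0.06 and -0.21, and the mean was -0.30 ± 0.27, with an unadjusted p of 0.064 and an adjusted p = 0.9997 in limma. All 4 values were negative, and replicate 1 was the lowest. The fitted mean of Hoxb9 was -0.14 without replicate 1 and -0.45 without replicate 3. Its 2 spots, both unshared, had means of -0.37 and -0.22, and they differed most on replicate 3, at -0.33 and 0.21. Hoxb13, a gene of the prostate and tail, had 0.44, -0.53, -0.03 and -0.28, a mean of -0.10 ± 0.41. Hoxb8 had -0.38 on replicate 2, while the other arrays lay between -0.06 and -0.02. The low value came from 1 of its 2 spots, with -0.80 against 0.04 on the other spot.

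The early Hoxb1, a hindbrain gene, was printed 10 times on each array and gives the scatter of single spots with shared values. All 10 spots had shared values on all arrays. The SD between spots was 0.164, 0.118, 0.0956 and 0.162 on replicates 1 to 4, and single spots lay between -0.31 and 0.19. The means of the 10 spots were -0.08, 0.02, 0.08 and -0.07. Unshared spots can scatter otherwise. The SD between the 2 unshared spots of Hoxb9 was 0.081, 0.260, 0.387 and 0.145 on replicates 1 to 4. Between the 2 of Hoxd9 it was 0.179, 0.077, 0.070 and 0.211.

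**Figure D3:**
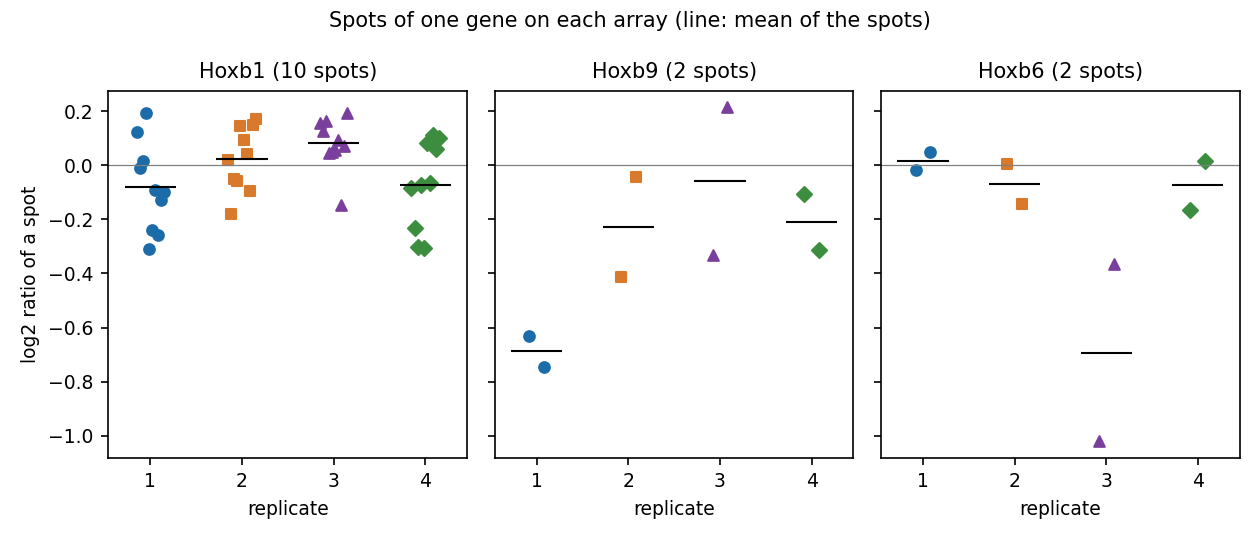
Log2 ratio of each spot of Hoxb1, Hoxb9 and Hoxb6 (vertical axis) on replicates 1 to 4 (horizontal axis); black lines are the mean of the spots of a gene on an array. The 10 spots of Hoxb1 scatter around 0 on every array, and the 2 spots of Hoxb6 are both lowest on replicate 3, at -1.02 and -0.37.

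In the Hoxc cluster the genes from Hoxc4 to Hoxc10 all had an unshared spot, and the cluster mean was 0.08, -0.15, -0.25 and -0.03 on replicates 1 to 4. It was -0.09 ± 0.14 over the arrays (SD, n = 4), and its fitted value was -0.01 without replicate 3. Hoxc9, which sets the thoracic identity of motor neurons, had the most negative mean of the Hox genes. It had -0.22, -0.62, -0.85 and -0.01, a mean of -0.42 ± 0.38, with an unadjusted p of 0.051 and an adjusted p = 0.9997 in limma. All values were below 0, but the value on replicate 4 was next to 0. The fitted mean of Hoxc9 was -0.27 without replicate 2 or without replicate 3 and -0.58 without replicate 1 or without replicate 4. Hoxc6, a trunk gene, had 0.02, -0.06, -0.75 and 0.09, so that only replicate 3 was far from 0. Hoxc10, which acts at the lumbar level, showed the same array as lowest on both of its spots, at -0.27 and -0.65.

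Hoxc5, a gene of the neck and upper trunk, alternated in sign with the dye orientation. With mtBALB in Cy3 (replicates 1 and 3) it had 0.51 and 0.24, and with mtBALB in Cy5 (replicates 2 and 4) -0.52 and -0.68. Its mean of -0.11 ± 0.58 was small beside the dye part of the fit, -0.49. If the ratios had not been turned, that -0.49 would be the line difference, with an unadjusted p of 0.0024 in limma. Hoxc4, its neighbour, alternated as well, with 0.23, -0.03, 0.03 and -0.37. Hoxc8 was highest on replicate 4, at 0.38, with the other arrays between -0.13 and -0.06.

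In the Hoxd cluster only Hoxd4, Hoxd8 and Hoxd9 had an unshared spot, and the cluster mean was -0.02, 0.07, -0.15 and -0.03 on replicates 1 to 4. It was -0.03 ± 0.09 over the arrays (SD, n = 4), and its fitted value was 0.00 without replicate 3. Hoxd4, which acts in the neck vertebrae, had -0.02, -0.02, -0.79 and -0.65, a mean of -0.37 ± 0.41, with an unadjusted p of 0.102 and an adjusted p = 0.9997 in limma. Replicates 1 and 2 lay at 0 and replicates 3 and 4 far below it. The fitted mean of Hoxd4 was -0.18 without replicate 3, -0.21 without replicate 4 and -0.56 without replicate 1. Hoxd3, a gene of the upper neck, alternated with the dye at -0.19, 0.35, -0.18 and 0.20. Hoxd10, which acts in hindlimb motor neurons, had -0.07, 0.31, -0.14 and 0.04, and Hoxd11, a forearm gene, had 0.10, -0.20, -0.12 and -0.29. Hoxd1, which wires pain-sensing neurons in mice, had -0.05, 0.17, 0.01 and 0.11. The spots of these last 4 genes had shared values on at least 3 arrays. Hoxd13, a gene of the digits, had a mean of 0.00 ± 0.04 and values between -0.05 and 0.04.

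Across the clusters, replicate 3 was the lowest array for 13 of the 21 Hox genes with an unshared spot, where 27.1% of all genes of that kind had it lowest. Over all 37 Hox genes it was lowest for 15, against 26.7% of all genes. This count was chosen after the values were seen, and neighbouring genes of 1 culture are not independent. The 13 genes are Hoxa9, Hoxb2, Hoxb3, Hoxb4, Hoxb5, Hoxb6, Hoxc6, Hoxc8, Hoxc9, Hoxc10, Hoxd4, Hoxd8 and Hoxd9. On replicate 3, 17 of the 21 genes were below 0, with a mean of -0.28, while 47.9% of all 9774 genes of that kind were below 0, with a mean of -0.01. On replicates 1, 2 and 4 the 21 genes had means of 0.05, 0.00 and -0.10. The 16 Hox genes without an unshared spot had means between -0.02 and 0.03 on every array, and replicate 3 was lowest in Hoxc12 and Hoxd10 alone.

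**Figure D4:**
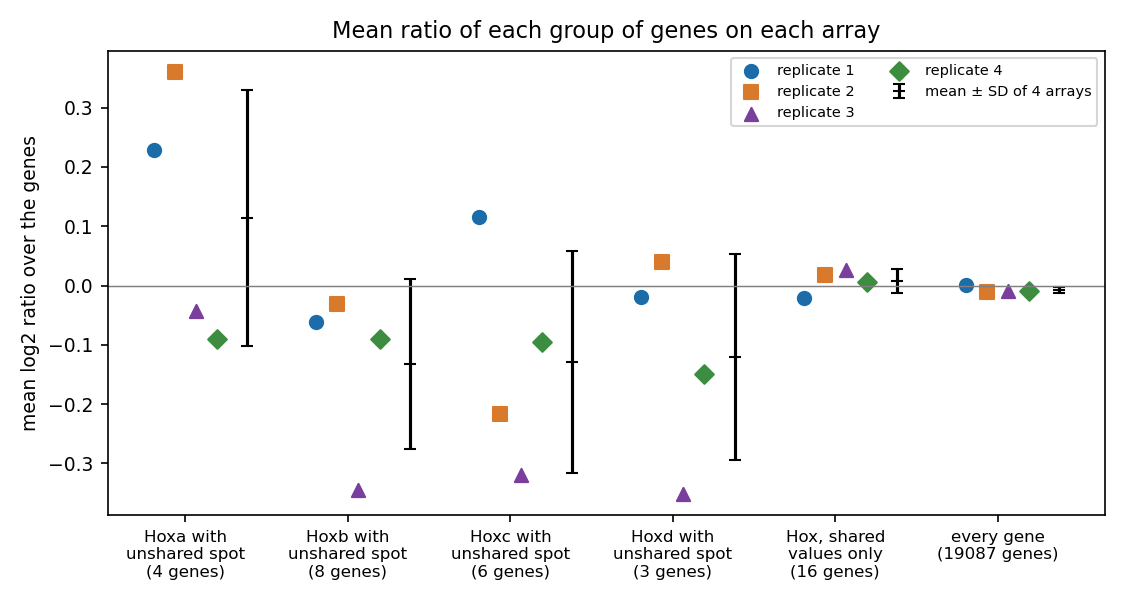
Mean log2 ratio over the genes of a group (vertical axis) on each of the 4 arrays, for the Hox genes with an unshared spot by cluster, the 16 other Hox genes, and every gene; symbols mark replicates and bars the mean ± SD of the 4 arrays. Replicate 3 lies between -0.35 and -0.32 in the Hoxb, Hoxc and Hoxd genes and at -0.04 in the Hoxa genes, which were at 0.23 and 0.36 on replicates 1 and 2.

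Paralogs differed most in group 9. There, where all 4 genes had an unshared spot, the means were 0.10 for Hoxa9, -0.30 for Hoxb9, -0.42 for Hoxc9 and 0.02 for Hoxd9, a spread of 0.52, the widest of the 13 groups. In group 4 the means of Hoxb4, Hoxc4 and Hoxd4 were -0.21, -0.04 and -0.37, and that of Hoxa4, with no unshared spot, was 0.04. In groups 11 and 12, each with 2 genes and none with an unshared spot, the means lay within 0.003 and 0.012 of each other. Pairs of genes were also compared by the root mean square difference of their ratios over the 4 arrays. Among the 21 genes with an unshared spot its median was 0.374 for 15 pairs of neighbours, 0.430 for 37 other pairs within a cluster, 0.406 for 158 pairs from different clusters and 0.453 for the 16 of those that are paralogs. Over all 37 genes neighbours had 0.339 (33 pairs), other pairs of a cluster 0.330 (121 pairs) and pairs from different clusters 0.344 (512 pairs). These medians are descriptions with no test, since the genes share their cultures and arrays.

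Upstream sequences are shown for 2 pairs of genes whose ratios ran alike over the arrays. Hoxa5 and Hoxa9 divided the replicates in the same way, and the paralogs Hoxb4 and Hoxd4 were both lowest on replicate 3. They are the 250 bases before the RefSeq start of each gene, from 5′ to 3′ on the strand of the gene in GRCm38.p6. RefSeq entries of this kind were matched for 22 of the 37 genes. Capitals mark every match, on either strand, to 5 motifs: the CCAAT box (CCAAT), the TATA box (TATAAA), the GC box bound by Sp1 (GGGCGG), the E-box (CACGTG) and a joint site of Hox proteins and their cofactor Pbx (TGATTNAT). None of the matches found here overlap.
Hoxa5, chr6:52204588-52204837, minus strand: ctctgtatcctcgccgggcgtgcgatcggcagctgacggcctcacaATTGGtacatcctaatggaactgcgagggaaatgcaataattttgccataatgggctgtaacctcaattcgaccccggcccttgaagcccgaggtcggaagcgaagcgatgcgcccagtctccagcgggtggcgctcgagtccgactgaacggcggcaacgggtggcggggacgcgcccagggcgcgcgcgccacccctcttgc
Hoxa9, chr6:52227371-52227620, minus strand: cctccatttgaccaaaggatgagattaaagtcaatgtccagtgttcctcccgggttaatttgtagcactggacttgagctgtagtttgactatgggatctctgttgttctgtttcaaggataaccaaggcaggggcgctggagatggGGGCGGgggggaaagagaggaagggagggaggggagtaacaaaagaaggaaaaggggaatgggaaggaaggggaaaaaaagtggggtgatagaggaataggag
Hoxb4, chr11:96318017-96318266, plus strand: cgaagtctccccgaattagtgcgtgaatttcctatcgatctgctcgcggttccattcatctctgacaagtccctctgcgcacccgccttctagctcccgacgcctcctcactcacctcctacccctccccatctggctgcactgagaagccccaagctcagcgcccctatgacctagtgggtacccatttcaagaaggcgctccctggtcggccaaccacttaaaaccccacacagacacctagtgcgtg
Hoxd4, chr2:74721728-74721977, plus strand: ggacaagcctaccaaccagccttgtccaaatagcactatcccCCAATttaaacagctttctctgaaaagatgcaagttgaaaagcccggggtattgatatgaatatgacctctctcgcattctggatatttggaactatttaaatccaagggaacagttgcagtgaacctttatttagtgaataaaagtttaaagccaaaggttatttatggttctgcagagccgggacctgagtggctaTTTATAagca

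The genes of a pair had no motif in common in these windows. Hoxa5 held 1 CCAAT box on the opposite strand and Hoxa9 held 1 GC box. Hoxb4 held none of the 5 motifs, and Hoxd4 held 1 CCAAT box on its own strand and 1 TATA box, read as TTTATA, on the opposite one. Of all 32851 listed promoter windows of this length, 33.8% held a CCAAT box, 12.4% a TATA box, 32.7% a GC box, 6.02% an E-box and 2.82% the joint Hox and Pbx site. Of the 24 windows of Hox genes, 14 held a CCAAT box, 4 a TATA box, 10 a GC box, 4 an E-box and 2 the joint site. The guanine and cytosine content was 63.6% for Hoxa5 and 49.6% for Hoxa9, and 58% for Hoxb4 and 40.4% for Hoxd4. A match describes letters and not a bound site.

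The dye part of the ratios was larger in absolute value than the mean for most Hox genes. How often this held over all genes was not counted, so it is not read as a trait of the Hox genes. The dye part is given as the distance of the mean of replicates 2 and 4 from the mean of all arrays. It was -0.49 for Hoxc5, -0.31 for Hoxb13, -0.27 for Hoxa2, 0.24 for Hoxb2 and 0.23 for Hoxd3 and Hoxc12. Of these genes only Hoxc5, Hoxd3 and Hoxc12 alternated in sign with the dye orientation. The dye part of Hoxb2 rests on replicate 3, at -0.71, as its other arrays lay between 0.13 and 0.24. Set against each other over the 37 genes, any 2 arrays gave a Pearson's r from -0.26 to 0.15. The 2 pairs of like orientation gave 0.13 and 0.15, against -0.19 and 0.04 over all genes. Genes of 1 array share its cultures and labelling, so these values are descriptions.

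**Figure D5:**
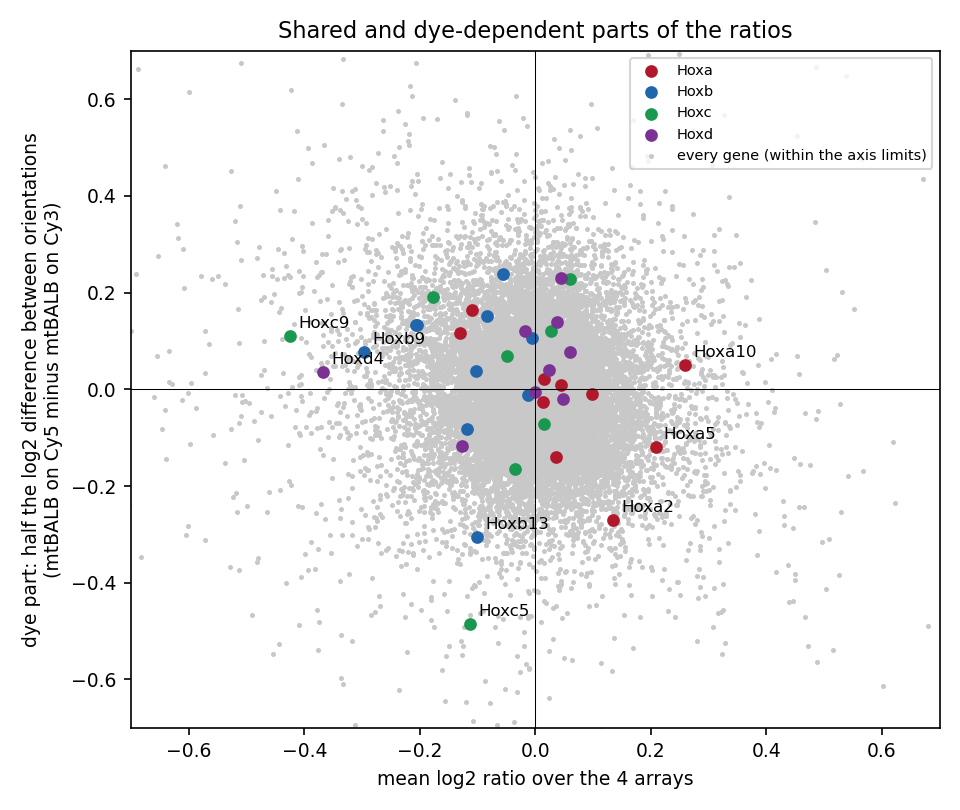
Dye part of the fit (vertical axis, log2, the mean of the arrays with mtBALB on Cy5 minus the mean of all arrays) against the mean log2 ratio over 4 arrays (horizontal axis) for the 37 Hox genes by cluster, over every gene in grey. Hoxc9, Hoxd4 and Hoxb9 lie farthest to the left, at -0.42, -0.37 and -0.30, and Hoxc5 lies lowest, at -0.49.

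Partners of Hox proteins were near 0. Of 8 measured cofactors of the Pbx, Meis and Pknox families, which bind DNA together with Hox proteins, 0 passed the adjusted threshold or an unadjusted p under 0.05 in limma, where 0% and 3.64% of all genes did, and their median was -0.02 beside -0.00 over all genes. Meis1 had -0.15, -0.09, -0.26 and -0.02 on replicates 1 to 4, below 0 on each array (unadjusted p = 0.091). Meis2 had -0.14, -0.00, -0.55 and 0.10 (unadjusted p = 0.169). Both were lowest on replicate 3, as 3 of the 8 cofactors and 26.7% of all genes were.

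Chromatin regulators of the clusters were measured on both sides of 0. Of 22 Polycomb genes, 12 had a positive mean, 2 had an unadjusted p under 0.05 on the positive side and 0 on the negative side, and the list median was 0.01. Over all genes 49.5% had a positive mean, and 1.59% were called at that p with a positive and 2.05% with a negative mean. These 2 were Rbbp7, a histone-binding subunit, at 0.25 ± 0.10 with 4 positive arrays, and the methyltransferase Ezh2 at 0.22 ± 0.25, with 0.02, 0.41, -0.03 and 0.46. Of 11 trithorax genes and activators, 2 had an unadjusted p under 0.05 on each side, beside 3.64% of all genes on either side, and the list median was -0.05. The demethylase Kdm6b, which removes the Polycomb mark, had -0.12, -0.58, -0.84 and -0.47, a mean of -0.50 ± 0.30, negative on all arrays. Dpy30, a subunit shared by methyltransferases of this group, had 0.05, 0.31, 0.14 and 0.27, positive on all arrays. Outside the rule for named genes, and chosen after their values were seen, the others were Kmt2a, the methyltransferase that keeps Hox genes active, at -0.28 ± 0.26, and Wdr5, its partner, at 0.21 ± 0.16. Kmt2a had -0.59 on replicate 3, its lowest array, and Kdm6b was lowest there too. In all, replicate 3 was lowest for 4 of the 11 trithorax and 4 of the 22 Polycomb genes, against 26.7% of all genes, and the mean of the Polycomb list was 0.10 on that array, its highest. None of these Polycomb and trithorax genes passed the adjusted threshold in limma, where 0% of all genes did.

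Upstream regulators and genes next to the clusters had 0 of 13 and 0 of 10 members at an unadjusted p under 0.05 in limma, where 3.64% of all genes were called. Of 13 genes such as the Cdx factors, retinoic acid receptors and retinoid enzymes, 4 had an unshared spot, and the list median was 0.03. Egr2, which drives Hox genes in the hindbrain, had -0.15, -0.24, -1.63 and -0.03 over 10 spots, and Cyp26a1, which breaks down retinoic acid, had 0.31, 0.02, -0.09 and 0.14. Of 10 genes at the borders of the clusters the median was 0.03, with 5 positive and 5 negative means. Lnpk, beside Hoxd, had 0.44, -0.06, 0.22 and -0.04, and Evx2, next to Hoxd13, had -0.19, 0.05, -0.42 and 0.05. Both alternated in sign with the dye orientation, as 21.3% of all genes did.

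Both lines are cultured cybrids of the fibroblast line LMEB3 and not a tissue of several cell types. In bulk RNA, fewer cells of a type and less RNA per cell cannot be told apart. Markers of cell types were therefore read beside the Hox genes. Of 14 fibroblast markers, 8 had an unshared spot, among them Col1a1, Col1a2, Fn1 and Pdgfra. Means were positive for 7 of the 14 and negative for 7, with a median of -0.01, where 49.5% of all genes had a positive mean. The mean over the 14 was 0.32, -0.25, -0.00 and 0.11 on replicates 1 to 4. Col1a1 had 2.51 on replicate 1 and -0.02 on replicate 2. At an unadjusted p under 0.05 in limma, where 3.64% of all genes were called, were Col1a1, a collagen chain, with a mean of 1.11 ± 1.05, and the growth factor receptor Pdgfrb, with -0.47 ± 0.27. All 5 measured leukocyte markers had a negative mean, and the lysozyme Lyz2, at -0.32 ± 0.19 and negative on all 4 arrays, was called at that p too. None of the 7 epithelial or 5 endothelial markers had an unshared spot, while 3 of 5 leukocyte, 2 of 5 neuronal and 2 of 5 muscle markers had one. On replicate 3 many Hox genes were lowest. The list means there were -0.07 for leukocyte, -0.05 for epithelial, -0.03 for endothelial, -0.15 for neuronal and 0.13 for muscle markers. The muscle value leans on Myod1, at 0.67, whose sign alternated with the dye orientation, and the neuronal value on Syn1, at -0.58. The part of these markers in the Hox ratios was not tested.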

How the data were processed

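Spot values are the authors' deposited log2 ratios; per the labels, no base is stated and log2 was assumed. The submitters' processing notes name limma; how background and normalization were handled, and any filter, is not stated there or in the labels. No values were missing. Medians over all spots were between -0.00335 and 0.00513. Ratios were taken as already turned to 1 direction, and every sign and mean given here depends on that. It was judged from 171 spots with no annotated gene whose absolute ratio reached 0.6 on each array. Their sign followed the dyes in 163, was constant in 0 and did neither in 8. The spots were not picked as known controls. A line difference in ratios not turned would also follow the dyes, so these spots cannot decide the question and the turning remains an assumption.

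Spots with 1 gene in the platform annotation (33653) were averaged per gene, with symbols updated through a RefSeq table of GRCm38.p6 (18966 genes matched). The line difference was fitted in limma 3.58.1 (R 4.3.3, lmFit and eBayes) with a dye term, which leaves 2 residual degrees of freedom, and adjusted by Benjamini-Hochberg over all 19087 genes. The fit was tested on simulated data. The smallest p of an exact, two-sided sign-flip test of 4 arrays is 0.125. P-values rest on the spread between arrays of like dye orientation, drawn toward that of all genes. This spread holds cultures, labelling and hybridization together. Precision is limited by having 4 arrays.

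The Hox genes and other lists were chosen with earlier results of these data known. Named are, per cluster, the 3 members of smallest p and the 3 of largest range over the arrays, and of each list of cofactors, chromatin regulators, upstream regulators and bordering genes the 2 of smallest p; further genes, cell type markers among them, are named for counts or as neighbours and were chosen after their values were seen. Alternatives were other treatments of dye, turning, spots, scaling and variance, and leaving out each replicate.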

Additional observations from a re-analysis of the deposited data

Results flagged for a closer look

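In 5 of 37 Hox genes 1 array lay far from the other 3 by Dixon's criterion for 4 samples, which chance meets in about 1 of 20 groups and which 5.18% of all genes met. Of the 5 genes, 4 had an unshared spot, and 5.35% of all genes with such a spot were marked. Replicate 3 was the low array in Hoxb2 at -0.714, Hoxb6 at -0.692 and Hoxc6 at -0.755. Replicate 2 was the low array in Hoxb8 at -0.380, where 1 of 2 spots was low. In Hoxc8 replicate 4 was the high array, at 0.376. Of the 4 cluster means, that of Hoxb was marked, with -0.269 on replicate 3.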

How the results depend on the processing

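No gene passed the adjusted threshold in any of the alternatives run; the smallest adjusted p of a Hox gene was 0.464, without replicate 3. The count of Hox genes at an unadjusted p under 0.05, 1 in the fit reported, was 3 with no dye term (Hoxa10, Hoxb9 and Hoxc9, where 2.92% of all genes were called), 4 with the ratios taken as not turned (Hoxb13, Hoxc5, Hoxc12 and Hoxd3, 8.97% of all genes) and 0 among genes with an unshared spot (2.76% of 9774 genes), an alternative added after the data were seen. It ranged from 0 without replicate 2 to 7 without replicate 1 (Hoxa10, Hoxb2, Hoxb6, Hoxc6, Hoxc9, Hoxc10 and Hoxd4, where 8.27% of all genes were called). With 3 arrays the lone array of an orientation is assumed to vary like the others. It counts as much as both arrays of the other orientation, so values without a replicate are not plain means. The Hoxb mean was 0.0476 with the ratios taken as not turned, a fit that reads the dye-dependent part, and between -0.17 and -0.07 without single replicates. Those ranges were 0.00 to 0.11 for Hoxa, -0.17 to -0.01 for Hoxc and -0.07 to 0.00 for Hoxd. Over genes with an unshared spot the cluster means were 0.11, -0.13, -0.13 and -0.12 for Hoxa to Hoxd. Of 19 named Hox genes, 12 changed sign when taken as not turned. The fitted mean changed sign in 1, 3, 4 and 1 of them without replicates 1, 2, 3 and 4. With quantile normalization 0 of the 19 changed sign. Taking unshared spots altered only the mean of Hoxb6, from -0.20 to -0.30. Leaving out the dye term or using robust variances could not alter these means, since the orientations are balanced. Median spots could not either, as no named gene has more than 2 spots. No paired analysis was possible because each ratio is already the difference within its numbered pair, so that the fit reported is itself one over pairs and a further block has nothing to pair.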
